A study of Nannospalax ehrenbergi and Mus musculus with 25 samples.

Results

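The 42 genes described here serve cell proliferation. Of them, 15 act in DNA replication and the commitment to it, and 27 act in mitosis, the division of the chromosomes and of the cell. They were taken by name from a list drawn up with earlier results of these data known, and each was read in every library of both species. All 42 were found among the 27988 genes of the Spalax table and among the 47593 of the mouse table.

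The RNA-seq data hold 16 libraries of the blind mole rat Spalax, a long-lived and wild-caught subterranean rodent, and 9 libraries of male C57BL/6 mice. Animals had received a single injection under the skin of the left neck flank of 3-methylcholanthrene (3MCA), a carcinogen that damages DNA, at 1 mg in 500 µl for Spalax and 200 µg in 200 µl for mice. The question was how tissue that stayed free of a tumor differed from tumor tissue in a cancer-resistant and in a cancer-prone species. The 4 Spalax control libraries came from untreated females (animals 1042, 1075, 2095 and 6038). The 4 tolerant libraries came from the injected side of animals without a tumor, the males 2251 and 2261 at 18 months after injection and, at 30 months, the male 2218 and the female 2375. Tumor-bearing Spalax gave 1 library from the injected side (IS), which is the tumor, and 1 from muscle of the uninjected side (UIS) of the same animal. A granuloma, a benign spindle cell growth, was taken from the females 600 (14 months) and 976 (16 months). A malignant fibrosarcoma was taken from the female 2240 (18 months) and the male 2230 (30 months). The 3 untreated mice were 1, 2 and 5, and fibrosarcoma IS and UIS libraries came from mice 1019 (14 weeks), 1023 (12 weeks) and 512 (11 weeks). Mice were 3 to 4 months old, whereas the age of Spalax could only be estimated, at 2 to over 10 years. Each tumor type in Spalax thus rests on 2 wild animals that differed in age and, for fibrosarcoma, in sex. All untreated and tolerant libraries carried dual sequencing indexes and all libraries of tumor-bearing animals single ones, so index and group cannot be told apart in comparisons that cross them. A run label of granuloma UIS 976 carries another animal number than its title.

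Most cells of adult muscle are fibers that have left the cell cycle for good, and division is restricted to satellite cells, fibroblasts, vessel and immune cells. Before a cell divides, the MCM helicase is loaded on DNA and opened, nucleotides are made and the genome is copied. Cyclin B with Cdk1 then starts mitosis, kinesins and kinetochore proteins align the chromosomes, a checkpoint holds them until all are attached, and the central spindle guides the final cut. Most of these genes are transcribed in waves, by E2F factors for replication and by Mybl2 and Foxm1 for mitosis, which is why their RNA is widely read as a sign of dividing cells. Bulk tissue gives a mean over cells, so that fewer cells of a type and less RNA per cell cannot be told apart.

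Libraries held 17025447 to 23386729 reads in Spalax and 22143060 to 31179183 in mouse. The labelled tissue was checked by markers. The summed normalised count of 6 muscle fiber genes, among them Ckm and Ttn, was 893900 to 2710000 in the 12 Spalax muscle libraries and 159.5 to 3695 in the 4 tumors. With Myh4 as a further gene it was 866600 to 4136000 in the 6 mouse muscle libraries and 173 to 64060 in the 3 tumors. The IS libraries thus held little muscle RNA although their tissue label reads muscle. The sum of 6 fibroblast genes was 113700 to 1837000 in Spalax tumors and 7591 to 172000 in Spalax muscle, where tolerant 2251 alone exceeded a tumor, and 141100 to 164100 in mouse tumors against 5019 to 56510 in mouse muscle. Macrophage genes summed to 4474 to 11870 in Spalax tumors against 452 to 9641 in muscle, and to 4844 to 40730 against 688 to 7684 in mouse. Between IS and UIS limma called 3 of 5 macrophage genes higher in granuloma, 4 of 5 in Spalax fibrosarcoma and 3 of 6 in mouse. Of 4 lymphocyte genes tested, 0 were called higher in granuloma, 3 in Spalax fibrosarcoma (and 1 lower) and 0 in mouse. Of all genes tested, 11.7%, 17.4% and 22.8% were called higher in these comparisons. The part of these cell types in the results below was not tested. Values are normalised counts, that is, reads divided by 1 size factor per library. Unless stated otherwise, values of a group follow the order of animals above, and a gene was called differentially expressed when the adjusted p of limma was at most 0.05.

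**Figure D1:**
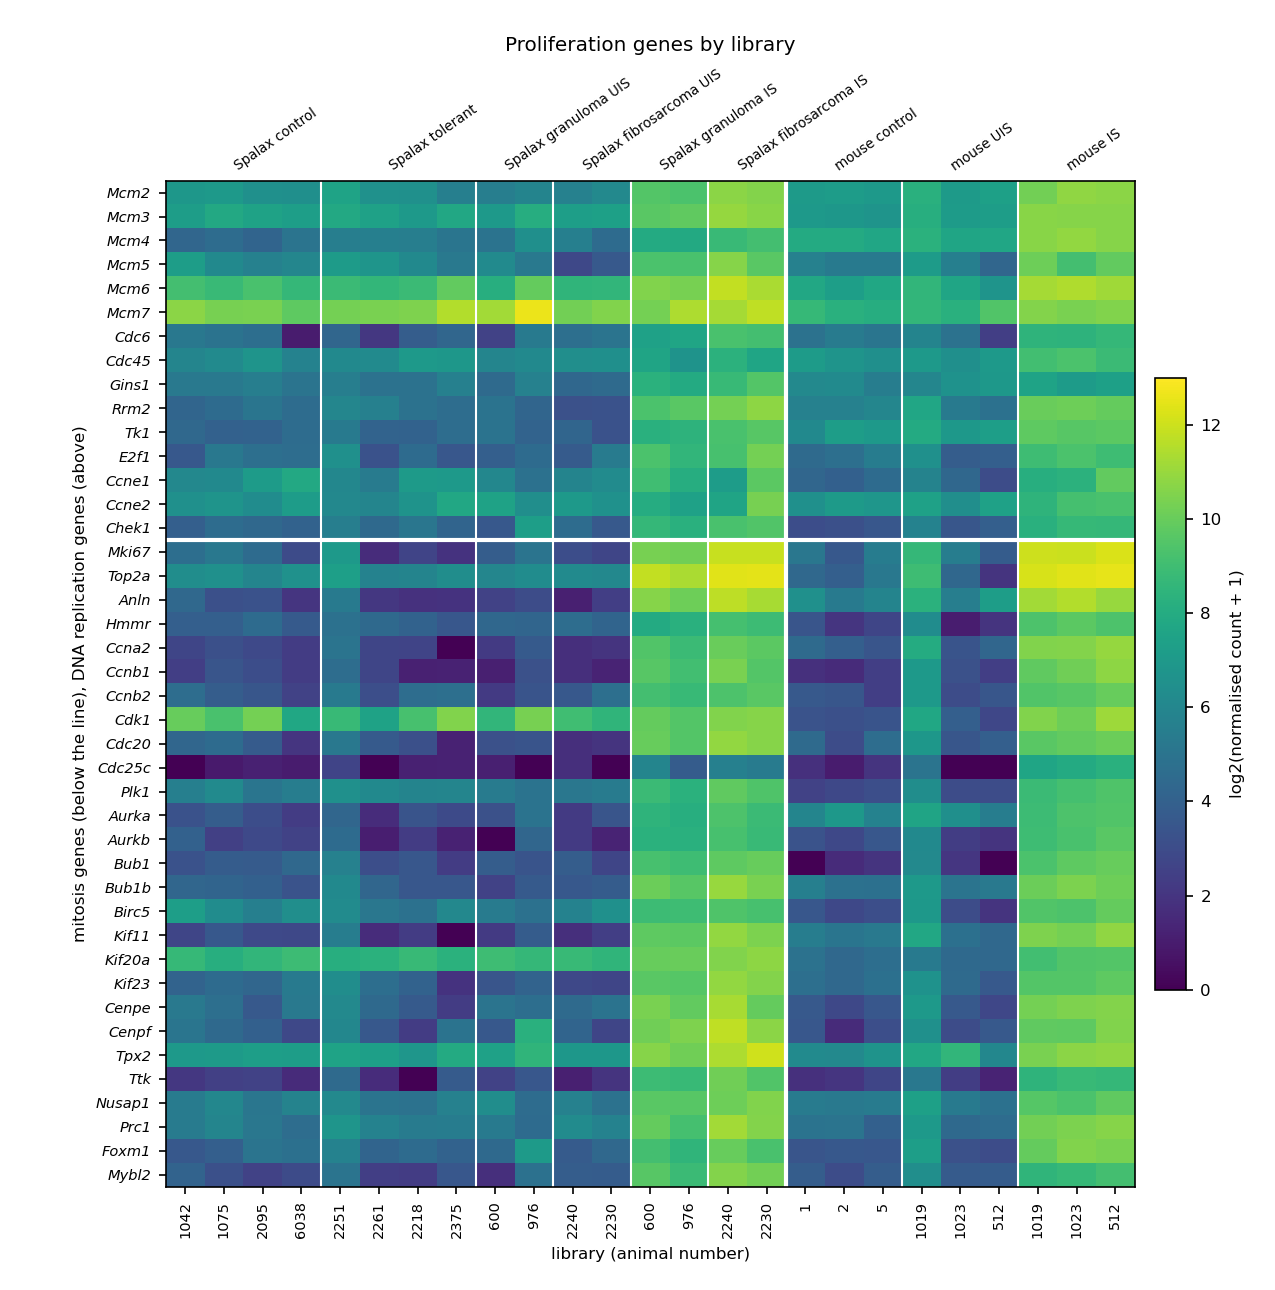
Each column is 1 library, named by its animal number, and each row is 1 of the 42 genes, with the 15 DNA replication genes above the white line and the 27 mitosis genes below it. Color gives log2 of the normalised count plus 1. Tumor (IS) columns are bright in nearly every row in both species. Mcm6, Mcm7, Cdk1 and Kif20a are among the rows that are bright in Spalax muscle too. Mouse UIS 1019 is brighter than the other mouse muscle libraries.

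Tumor tissue of both species held far more proliferation RNA than muscle. The 15 replication genes together measured 2148 to 8201 in the 12 Spalax muscle libraries, 8592 and 9222 in the granulomas and 16480 and 18850 in the fibrosarcomas. In mouse the same sum was 1512 to 2885 in the 6 muscle libraries and 13990 to 14940 in the 3 tumors. The Spalax muscle library nearest to the granulomas was granuloma UIS 976, where Mcm7 alone gave 6301 of 8201. The 27 mitosis genes measured 1064 to 2917 in Spalax muscle, 24480 and 19650 in the granulomas and 46620 and 39760 in the fibrosarcomas. In mouse muscle they measured 515 to 854 in 5 libraries and 4206 in UIS 1019, against 31240, 34810 and 40190 in tumors. No tumor overlapped with any muscle library in either sum. Much of both sums in Spalax muscle came from Mcm7, Cdk1 and Kif20a. In control 1042 the replication sum of 3068 was 1344 without Mcm7, and the mitosis sum of 2211 was 784 without Cdk1 and Kif20a. Without these 3 genes, left out with the values known, the mitosis sum was 0.367 to 0.987 of the replication sum in Spalax muscle. In Spalax tumors it was 2.37 to 3.11 of it. With all members the ratio was 0.356 to 0.808 in Spalax muscle and 2.11 to 2.85 in Spalax tumors. In mouse this ratio was 0.261 to 0.56 in 5 muscle libraries, 1.46 in UIS 1019 and 2.23 to 2.71 in tumors, so that the ratio in each tumor lay above that in each muscle library.

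**Figure D2:**
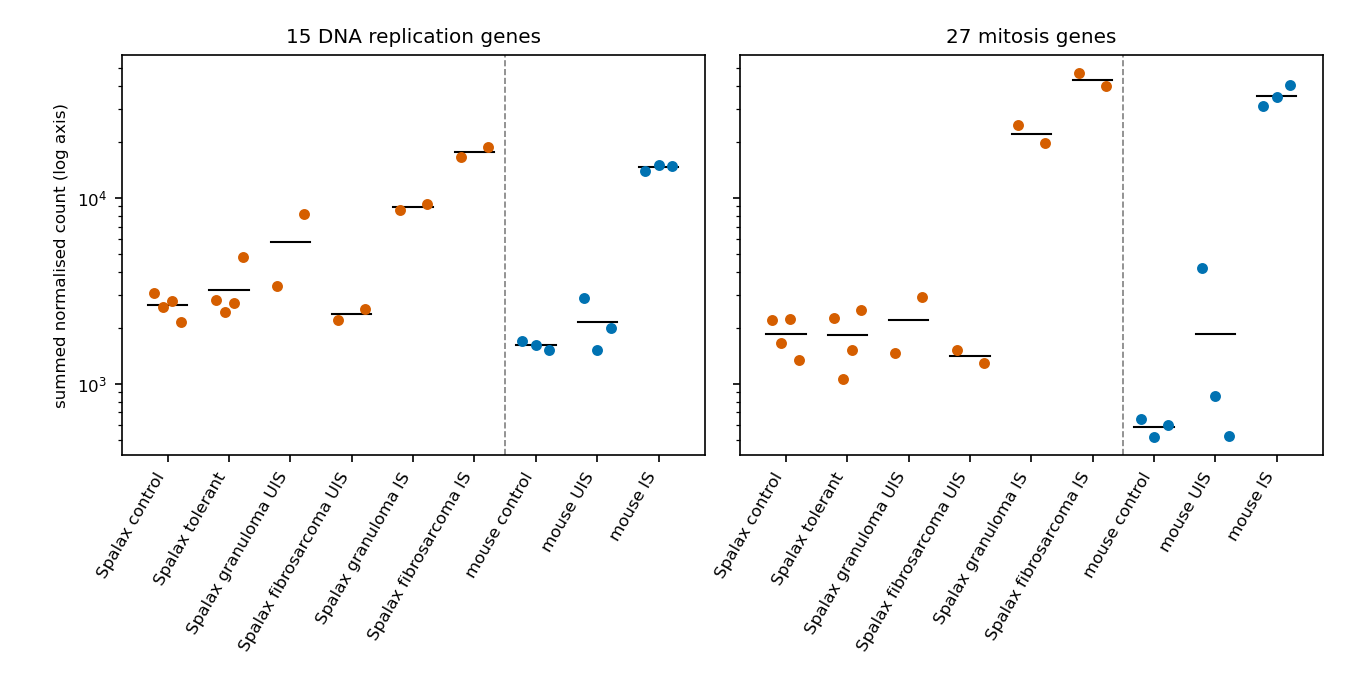
Summed normalised count of the 15 DNA replication genes (left) and the 27 mitosis genes (right) on a log axis, 1 point per library and a bar at the group mean. Every IS point lies above every muscle point of its species in both panels, and the replication sum of granuloma UIS 976 (8201) comes within reach of the granulomas (8592 and 9222).

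Gene by gene, all 42 members passed the filter on low values in each tumor comparison. In the granulomas 31 of 42 were called higher than on the UIS (8 of replication, 23 of mitosis) and 0 lower, where 11.7% of all 14735 genes tested were called higher. Leaving out any 1 of the 4 granuloma libraries (IS 600, IS 976, UIS 600 or UIS 976) left 0 members and 0 genes in all past the limma threshold, with the lone library of a group taken to vary like the other group, while 25 to 38 members kept an unadjusted p under 0.05, a level that 20.3% of all genes passed upward with all 4 libraries. In Spalax fibrosarcomas 40 of 42 were called higher (13 and 27) and 0 lower, against 17.4% of 14696 genes. Without UIS 2240, or without UIS 2230, limma again called 0 members and 0 genes in all, with 38 members at an unadjusted p under 0.05 (24.4% of all genes upward with all 4 libraries), and without IS 2240 or IS 2230 it called 41 and 39 members. In mouse fibrosarcomas 41 of 42 were called higher (14 and 27) and 0 lower, against 22.8% of 15220 genes. Of the members, 15, 16 and 17 passed the filter through the tumor libraries alone in granuloma, Spalax fibrosarcoma and mouse, so they could hardly be called lower. Most of these were mitosis genes (14, 13 and 15), so that the medians of both lists are not like for like. The median log2 fold change of replication members was 3.04, 4.33 and 3.14 in these comparisons and that of mitosis members 5.42, 6.30 and 5.45, beside medians over all genes of -0.01, 0.03 and 0.11. Of all called genes 48%, 47.8% and 50.5% were higher, whereas scaling by total reads gave 75%, 75.7% and 81.9%, with all-gene medians of 0.72, 0.83 and 1.16. All 4 Spalax tumors exceeded all 12 muscle libraries in 37 members, where this held for 13.4% of all genes, and the exceptions were Mcm7, Cdc45, Ccne1, Ccne2 and Cdk1. All 3 mouse tumors exceeded all 6 muscle libraries in 42 of 42 members, against 25.5% of genes.

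**Figure D3:**
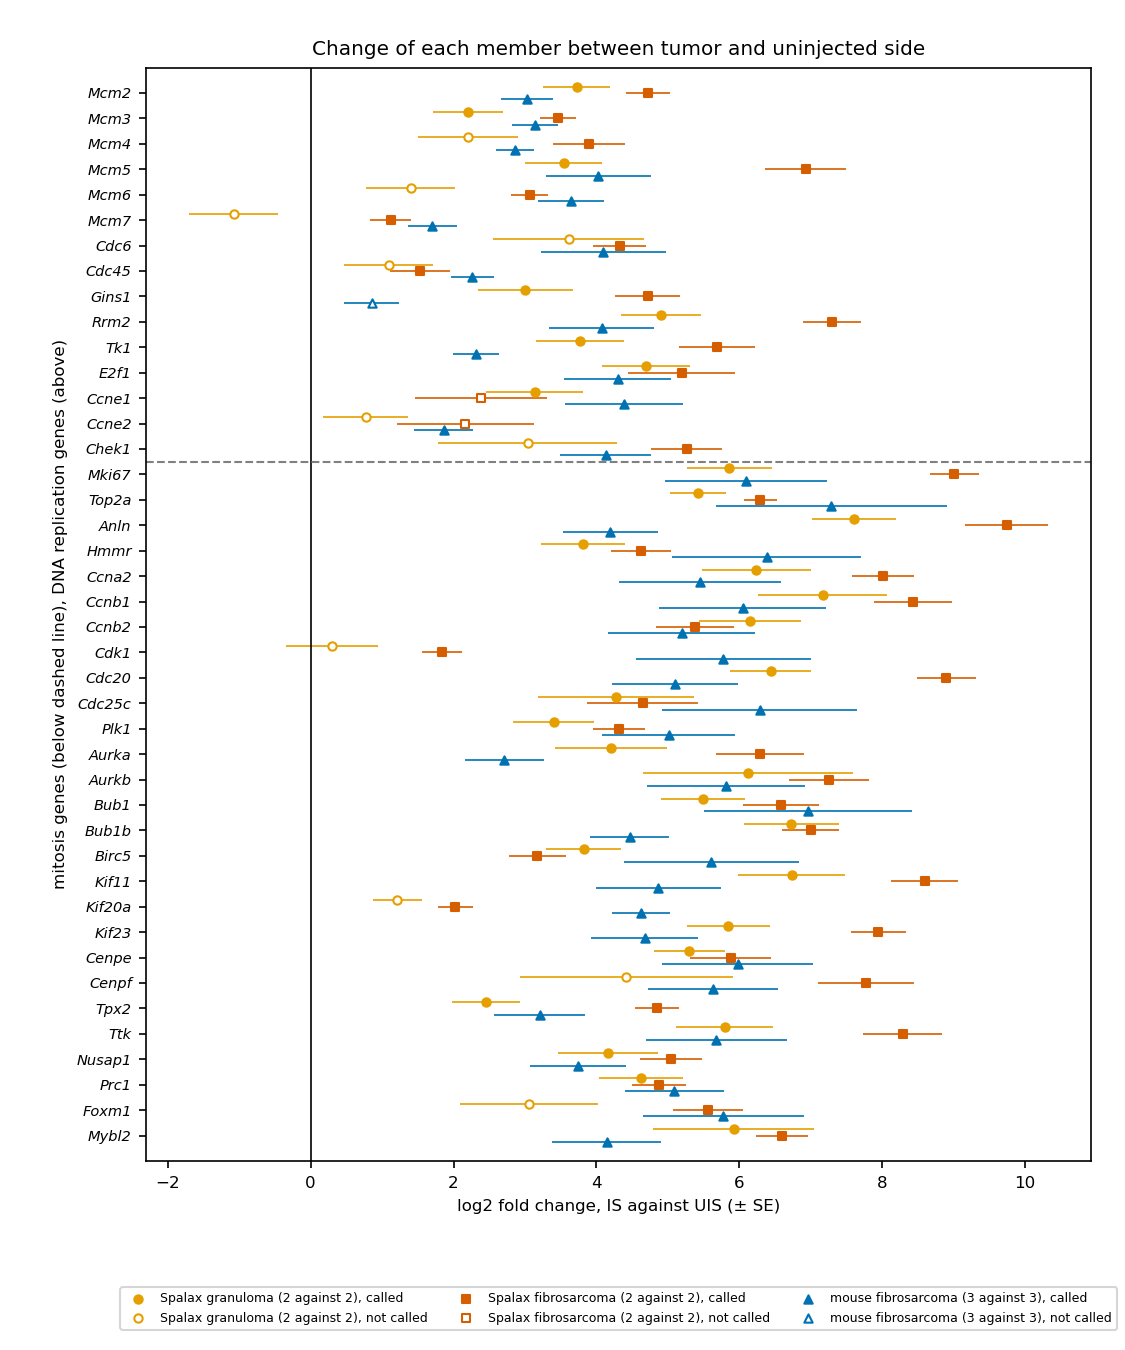
Log2 fold change of each member between IS and UIS (± SE) in Spalax granuloma (orange circles, 2 against 2), Spalax fibrosarcoma (red squares, 2 against 2) and mouse fibrosarcoma (blue triangles, 3 against 3), with filled symbols for genes called by limma. Mitosis genes below the dashed line lie mostly between 4 and 9, Mcm7 is the only member with a value below 0 (-1.08 in granuloma), and Cdk1 is near 0 in granuloma (0.30).

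The MCM helicase unwinds DNA at the replication fork. Its 6 subunits, the loader Cdc6 and the helicase partners Cdc45 and Gins1 formed a group of 9, with a median log2 fold change of 2.21, 3.89 and 3.03 in the 3 comparisons. Of them, 4 of 9 were called in granuloma, 9 of 9 in Spalax fibrosarcoma and 8 of 9 in mouse. Mcm7 measured 2367 and 6301 on the UIS against 1258 and 2669 in granulomas, and 1209 and 1498 on the UIS against 2446 and 3517 in fibrosarcomas. It measured 1724, 1281, 1343 and 866 in control and 1236, 1317, 1423 and 2912 in tolerant muscle. Granuloma 600 had less Mcm7 than its own UIS, and UIS 976 had the highest value of all 16 Spalax libraries. Mcm7 differed by -1.08 ± 0.62 in granuloma (log2 fold change ± SE, limma adjusted p = 0.251) and 1.12 ± 0.29 in fibrosarcoma (adjusted p = 0.0419), a call that was lost without the filter (0.062) and in 1 model over all Spalax libraries (0.0981). Mouse Mcm7 measured 416, 302 and 277 in control muscle, 395, 307 and 707 on the UIS and 1512, 1336 and 1478 in tumors. Here the tumors lay above all muscle libraries, with a change of 1.7 ± 0.34 (limma adjusted p = 0.00925).

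Mcm2 and Mcm5 rose more. Mcm2 measured 45.8 and 56.5 on the UIS against 743 and 634 in granulomas, and 52.1 and 68.2 on the UIS against 1694 and 1512 in fibrosarcomas, a change of 3.73 ± 0.47 and 4.72 ± 0.31 (limma adjusted p = 0.00964 and 0.00259). Mcm5 measured 73.6 and 37.7 on the UIS against 633 and 616 in granulomas, and 6.06 and 11.4 on the UIS against 1593 and 813 in fibrosarcomas, and its fibrosarcoma change of 6.93 ± 0.56 was the largest of the 6 subunits (limma adjusted p = 0.00407). In both genes each tumor lay far above its UIS. Mcm4 measured 30.1 and 88.3 on the UIS against 245 and 239 in granulomas, and 47.3 and 22.8 on the UIS against 446 and 563 in fibrosarcomas, and Mcm6 286 and 958 on the UIS against 1469 and 1298 in granulomas, and 365 and 372 on the UIS against 3604 and 2649 in fibrosarcomas. Neither overlapped between IS and UIS, but the granuloma changes of 2.21 ± 0.70 and 1.4 ± 0.62 were not called by limma (adjusted p = 0.0738 and 0.154), and UIS 976 was the higher of the UIS pair in both. In fibrosarcoma they rose by 3.89 ± 0.50 and 3.06 ± 0.26 (limma adjusted p = 0.00894 and 0.00426), and in mouse by 2.86 ± 0.27 and 3.64 ± 0.47 (0.0014 and 0.00276).

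In untreated and tolerant Spalax Mcm4 measured 18.8, 23.4, 17.5 and 30.8 in control and 46.5, 47.1, 46.3 and 32.2 in tolerant muscle, and Mcm6 552, 452, 615 and 399 in control and 467, 388, 456 and 939.5 in tolerant muscle. Tolerant 2375 stood above the other muscle libraries of its group in Mcm6 and below them in Mcm4. Mouse Mcm4 measured 242, 247 and 205 in control muscle, 314, 197 and 204 on the UIS and 1638, 1890 and 1596 in tumors, and Mcm6 220.0, 157 and 214 in control muscle, 378, 198 and 104 on the UIS and 2471, 2795 and 2238 in tumors.

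Cdc6, which loads the MCM ring, measured 4.82 and 38.9 on the UIS against 171 and 201 in granulomas, and 25.5 and 31.3 on the UIS against 610.4 and 562 in fibrosarcomas. It measured 36.4, 29.7, 24.9 and 0.995 in control and 18.8, 3.29, 13.2 and 18.8 in tolerant muscle, and in mouse 29.3, 42.2 and 31.9 in control muscle, 58.04, 28.9 and 4.32 on the UIS and 349, 333 and 401 in tumors. Tumors lay above every muscle library of their species. The wide gap between both granuloma UIS libraries left the granuloma change of 3.61 ± 1.05 uncalled (limma adjusted p = 0.0603), while it was called with the animal as a replicate block (0.0481). The changes in Spalax fibrosarcoma (4.33 ± 0.37, limma adjusted p = 0.00438) and mouse (4.1 ± 0.87, 0.0115) were called. Cdc45, which activates the loaded helicase, measured 60.3 and 70.7 on the UIS against 193 and 102 in granulomas, and 86.1 and 88.1 on the UIS against 326 and 197 in fibrosarcomas. It measured 58.5, 74.6, 104 and 53.7 in control and 69.8, 73.4, 124 and 118 in tolerant muscle, so granuloma 976 lay within the range of untreated and tolerant muscle. The granuloma change of 1.09 ± 0.62 was not called (limma adjusted p = 0.24). The fibrosarcoma change of 1.53 ± 0.42 was called at 0.0493 and lost with the animal as a replicate block (0.0754), without the filter (0.0637) and with a pseudocount of 0.1 (0.0517). Mouse Cdc45 measured 138, 106 and 89.4 in control muscle, 128, 86.6 and 125 on the UIS and 532, 641 and 462 in tumors, a change of 2.26 ± 0.31 (limma adjusted p = 0.00317).

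Gins1, a subunit of the GINS complex that completes the active helicase, measured 21.7 and 51.8 on the UIS against 311 and 246 in granulomas, and 19.4 and 21.3 on the UIS against 429.7 and 733 in fibrosarcomas. It measured 37.5, 36.9, 46.1 and 30.8 in control and 45.8, 28.5, 29.1 and 49.6 in tolerant muscle. Spalax tumors stood clear of all muscle, by 3.0 ± 0.67 in granuloma and 4.72 ± 0.45 in fibrosarcoma (limma adjusted p = 0.0316 and 0.00522). Mouse Gins1 measured 69.3, 73.3 and 43.97 in control muscle, 61.7, 96.9 and 121 on the UIS and 184, 141 and 168 in tumors. The mouse tumors lay above all muscle libraries by a narrow margin, and this was the sole member not called there (0.86 ± 0.39, limma adjusted p = 0.113), although scaling by total reads called it (1.92, adjusted p = 0.00693).

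Both genes of nucleotide supply rose in all 3 tumor comparisons. Rrm2, the regulated subunit of ribonucleotide reductase, measured 30.1 and 17.7 on the UIS against 634 and 820.5 in granulomas, and 8.49 and 8.53 on the UIS against 1241 and 1792 in fibrosarcomas. It measured 17.7, 22.5, 32.4 and 22.9 in control and 62.3, 49.3, 29.1 and 24.1 in tolerant muscle, and in mouse 51.3, 51.2 and 60.99 in control muscle, 209, 39.2 and 27.4 on the UIS and 1041, 1131 and 965 in tumors. Each tumor exceeded all muscle libraries of its species, and the change was 4.91 ± 0.56 in granuloma, 7.29 ± 0.40 in Spalax fibrosarcoma and 4.07 ± 0.74 in mouse (limma adjusted p = 0.00853, 0.00181 and 0.00708). Tk1, the thymidine kinase of S phase, measured 30.1 and 16.5 on the UIS against 299 and 339.6 in granulomas, and 18.2 and 8.53 on the UIS against 606 and 799 in fibrosarcomas. It measured 19.9, 15.3, 16.2 and 22.9 in control and 38.3, 16.4, 15.9 and 24.1 in tolerant muscle, and in mouse 70.9, 148 and 132 in control muscle, 247, 122 and 156 on the UIS and 878, 784 and 851 in tumors. Tk1 was already above 70 in mouse muscle and stayed under 39 in Spalax muscle, levels that come from separately normalised tables. It rose by 3.78 ± 0.62, 5.69 ± 0.53 and 2.32 ± 0.32 (limma adjusted p = 0.0161, 0.00503 and 0.00339).

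Of the 4 genes of S phase entry and its checkpoint, 2 were called in granuloma, 2 in Spalax fibrosarcoma and 4 in mouse. Ccne2, a cyclin that drives Cdk2 into S phase, measured 179.7 and 85.97 on the UIS against 259.9 and 174 in granulomas, and 128 and 95.2 on the UIS against 194 and 1286 in fibrosarcomas. It measured 91.7, 104, 78.6 and 144 in control and 66.8, 59.1, 102 and 218 in tolerant muscle. Fibrosarcoma 2230 stood alone at 1286, while granuloma 976 and fibrosarcoma 2240 lay within the range of muscle. The changes of 0.77 ± 0.60 in granuloma and 2.17 ± 0.96 in fibrosarcoma were not called (limma adjusted p = 0.378 and 0.146). Mouse Ccne2 measured 91.3, 137 and 112 in control muscle, 173, 84.6 and 176 on the UIS and 351, 581 and 615 in tumors, a call at 1.86 ± 0.42 (limma adjusted p = 0.0133). Its partner gene Ccne1 measured 63.9 and 28.3 on the UIS against 524 and 278 in granulomas, and 56.98 and 75.3 on the UIS against 143 and 835 in fibrosarcomas. It measured 66.2, 70.1, 138 and 233 in control and 63.1, 41.6, 134 and 123 in tolerant muscle, and control 6038 exceeded fibrosarcoma 2240. Ccne1 rose in granuloma (3.13 ± 0.68, limma adjusted p = 0.0297) and, with both fibrosarcomas far apart, was not called in fibrosarcoma (2.38 ± 0.92, 0.108), although DESeq2 called both cyclins there (0.00404 for Ccne1 and 0.00753 for Ccne2). Mouse Ccne1 measured 18.7, 15.1 and 21.98 in control muscle, 55.6, 19.6 and 7.2 on the UIS and 281, 327 and 937 in tumors, with tumor 512 the highest, and was called (4.38 ± 0.82, limma adjusted p = 0.00787).

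Chek1, the checkpoint kinase that guards stalled forks, measured 10.8 and 156 on the UIS against 404 and 309 in granulomas, and 23.03 and 11.4 on the UIS against 609.8 and 718 in fibrosarcomas. It measured 14.4, 23.4, 19.96 and 15.9 in control and 45.8, 20.8, 33.1 and 17.4 in tolerant muscle, and in mouse 7.33, 8.04 and 10.6 in control muscle, 53.2, 10.3 and 14.4 on the UIS and 306, 413 and 397 in tumors. Tumors lay above all muscle, yet both UIS libraries lay far apart and the granuloma change of 3.04 ± 1.25 was not called (limma adjusted p = 0.132). The changes of 5.26 ± 0.50 in Spalax fibrosarcoma and 4.13 ± 0.64 in mouse were called (limma adjusted p = 0.00518 and 0.00442). E2f1, the factor that switches on replication genes, measured 14.5 and 22.4 on the UIS against 631 and 379 in granulomas, and 12.1 and 41.2 on the UIS against 601 and 1232 in fibrosarcomas and rose in all 3 comparisons (4.69 ± 0.62, 5.19 ± 0.74 and 4.3 ± 0.75, limma adjusted p = 0.0105, 0.0111 and 0.00634).

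Mki67, which coats mitotic chromosomes and is the usual histological marker of dividing cells, measured 13.3 and 30.6 on the UIS against 1286 and 1180 in granulomas, and 7.27 and 5.69 on the UIS against 3823 and 3859 in fibrosarcomas. It measured 25.4, 35.95, 22.4 and 6.96 in control and 131, 2.19, 5.29 and 2.68 in tolerant muscle. Control and UIS muscle stayed low and only tolerant 2251 exceeded 36 among the muscle libraries, with 174 reads. Mki67 rose by 5.86 ± 0.59 in granuloma and 9.01 ± 0.35 in fibrosarcoma (limma adjusted p = 0.00694 and 0.000854). Mouse Mki67 measured 35.04, 11.1 and 42.5 in control muscle, 404, 44.4 and 12.96 on the UIS and 4120, 4024 and 4955 in tumors, with UIS 1019 well above the other muscle libraries, and rose by 6.1 ± 1.13 (limma adjusted p = 0.00758). Top2a, the topoisomerase that untangles sister chromosomes, measured 61.5 and 78.9 on the UIS against 3542 and 2596 in granulomas, and 72.7 and 66.8 on the UIS against 5520 and 5599 in fibrosarcomas. It measured 81.7, 92.6, 58.6 and 95.5 in control and 161, 53.6, 56.9 and 83.1 in tolerant muscle, and in mouse 20.4, 14.1 and 36.2 in control muscle, 497, 19.6 and 2.88 on the UIS and 4818, 5392 and 5839 in tumors. Spalax muscle stayed at 53.6 to 161, and it rose by 5.42 ± 0.40, 6.3 ± 0.23 and 7.29 ± 1.62 (limma adjusted p = 0.00492, 0.000804 and 0.013). The large SE in mouse came with UIS values from 2.88 to 497, and edgeR put the mouse adjusted p at 0.0501.

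The mitotic cyclins, Cdk1 and its switches gave 5 of 6 calls in granuloma and 6 of 6 in both fibrosarcoma comparisons. Cdk1, the kinase that drives entry into mitosis, was the exception. Cdk1 measured 371 and 1277 on the UIS against 976 and 734 in granulomas, and 519 and 358 on the UIS against 1504 and 1585 in fibrosarcomas. It measured 1013, 608, 1254 and 212 in control and 433, 181, 604 and 1481 in tolerant muscle, so muscle and granuloma overlapped and tolerant 2375 came close to the fibrosarcomas. The granuloma change was 0.30 ± 0.64 (limma adjusted p = 0.76) and ran from -0.592 without granuloma UIS 600 to 1.19 without UIS 976. The fibrosarcoma change of 1.84 ± 0.28 was called (0.0129) and lost in 1 model over all Spalax libraries (limma adjusted p = 0.112). Mouse Cdk1 measured 8.96, 8.04 and 9.22 in control muscle, 215, 14.4 and 5.76 on the UIS and 1480, 1133 and 2216 in tumors. There muscle outside UIS 1019 stayed below 15 and the change was 5.78 ± 1.22 (limma adjusted p = 0.0112).

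Cdk1's cyclin partners did not share its level in Spalax muscle. Ccnb1, the main mitotic cyclin, measured 1.21 and 8.24 on the UIS against 787 and 533 in granulomas, and 2.42 and 1.42 on the UIS against 1359 and 729.8 in fibrosarcomas, and 4.42, 9.89, 7.48 and 3.98 in control and 24.02, 5.47, 1.32 and 1.34 in tolerant muscle. It rose by 7.17 ± 0.90 and 8.44 ± 0.55 in Spalax and 6.05 ± 1.17 in mouse (limma adjusted p = 0.00963, 0.00259 and 0.00868). Ccnb2 rose by 6.15 ± 0.71, 5.38 ± 0.54 and 5.19 ± 1.03, and Ccna2, the cyclin of late S phase and G2, by 6.24 ± 0.77, 8.01 ± 0.44 and 5.45 ± 1.14, all with a limma adjusted p of at most 0.0107. Cdc20, which activates the anaphase-promoting complex, rose by 6.44 ± 0.57, 8.9 ± 0.41 and 5.1 ± 0.88 (limma adjusted p = 0.00586, 0.0013 and 0.00608). Cdc25c, the phosphatase that frees Cdk1 from inhibition, had few reads in Spalax. It measured 1.21 and 0 on the UIS against 58.8 and 12.7 in granulomas, and 2.42 and 0 on the UIS against 49.8 and 41.4 in fibrosarcomas, so that the granulomas differed widely from each other, and its granuloma call (limma adjusted p = 0.0445) was lost with edgeR (0.0551), without the filter (0.0623) and with a pseudocount of 0.1 (0.064).

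All 7 mitotic kinases, checkpoint and passenger genes were called in all 3 tumor comparisons. Bub1b, which keeps anaphase waiting for unattached chromosomes, measured 4.82 and 11.8 on the UIS against 1066 and 784 in granulomas, and 10.9 and 12.8 on the UIS against 2008 and 1337 in fibrosarcomas. It measured 18.8, 17.1, 14.97 and 8.95 in control and 70.6, 18.6, 10.6 and 10.7 in tolerant muscle, and in mouse 47.3, 28.1 and 26.9 in control muscle, 125, 30.9 and 37.4 on the UIS and 1067, 1383 and 1126 in tumors. Tumors and muscle did not overlap, and the change was 6.73 ± 0.67, 7.0 ± 0.40 and 4.47 ± 0.55 (limma adjusted p = 0.00666, 0.00193 and 0.00253). Among the other 6, changes ranged in granuloma from 3.4 ± 0.57 for Plk1, a kinase of mitotic entry and centrosomes, to 6.13 ± 1.47 for Aurkb, the kinase of the chromosomal passenger complex. In Spalax fibrosarcoma they ranged from 3.17 ± 0.40 for Birc5 (survivin, a partner of Aurkb) to 8.29 ± 0.55 for Ttk, a spindle checkpoint kinase. In mouse the range was 2.71 ± 0.55 for Aurka, a spindle pole kinase, to 6.96 ± 1.45 for the checkpoint kinase Bub1. The Aurkb call in granuloma (limma adjusted p = 0.0382) rested on UIS values of 0 and 18.8 and was lost with edgeR (0.0611), without the filter (0.0589) and with a pseudocount of 0.1 (0.0787).

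Of 6 spindle and kinetochore genes, 5 were called in granuloma and 6 in each fibrosarcoma comparison. Tpx2, which nucleates microtubules around chromosomes, measured 174 and 357 on the UIS against 1583 and 1181 in granulomas, and 119 and 117 on the UIS against 2749 and 4247 in fibrosarcomas. It measured 129, 137, 156 and 148 in control and 182, 162, 111 and 244 in tolerant muscle, and in mouse 72.5, 68.3 and 103 in control muscle, 224, 381 and 63.3 on the UIS and 1359, 1734 and 1830 in tumors. Spalax muscle held Tpx2 at 111 to 357, and mouse UIS 1023, not UIS 1019, was its highest mouse muscle library. It rose by 2.45 ± 0.48, 4.85 ± 0.31 and 3.2 ± 0.64 (limma adjusted p = 0.0238, 0.00251 and 0.00924). Hmmr, a spindle protein and hyaluronan receptor, measured 19.3 and 17.7 on the UIS against 245 and 302 in granulomas, and 24.2 and 17.1 on the UIS against 577 and 479 in fibrosarcomas. It measured 14.4, 14.4, 22.4 and 11.9 in control and 27.8, 20.8, 15.9 and 10.7 in tolerant muscle, and in mouse 9.78, 3.01 and 5.67 in control muscle, 79.8, 1.03 and 2.88 on the UIS and 654, 855 and 657 in tumors. Spalax muscle was even, mouse UIS 1019 stood far above its peers, and Hmmr rose by 3.81 ± 0.59, 4.62 ± 0.42 and 6.38 ± 1.32 (limma adjusted p = 0.0146, 0.00483 and 0.0105). Cenpf, an outer kinetochore protein, measured 10.8 and 309 on the UIS against 1166 and 1442 in granulomas, and 16.97 and 5.69 on the UIS against 3402 and 1681 in fibrosarcomas. Both granulomas exceeded their UIS, yet UIS 976 was far above UIS 600 and the change of 4.42 ± 1.5 was not called (limma adjusted p = 0.0861), while it was with the animal as a replicate block (0.0411). Cenpf measured 32.02, 20.7, 14.97 and 5.97 in control and 63.8, 10.9, 3.97 and 29.5 in tolerant muscle, and in mouse 10.6, 2.01 and 7.8 in control muscle, 91.9, 7.22 and 11.5 on the UIS and 899, 877 and 1487 in tumors. It was called in Spalax fibrosarcoma (7.77 ± 0.67, limma adjusted p = 0.00447) and mouse (5.64 ± 0.91, 0.00494). Kif11, the motor that pushes spindle poles apart, rose by 6.73 ± 0.75, 8.6 ± 0.47 and 4.87 ± 0.88 (limma adjusted p = 0.00817, 0.00178 and 0.00696), and Cenpe and Nusap1 were called in all 3.

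The 4 genes of the central spindle and cytokinesis held the largest change of the list. Anln (anillin), the scaffold of the contractile ring, measured 4.82 and 7.07 on the UIS against 1598 and 1115 in granulomas, and 1.21 and 4.26 on the UIS against 3393 and 2526 in fibrosarcomas. It measured 19.9, 8.09, 8.73 and 2.98 in control and 39.8, 3.29, 2.65 and 2.68 in tolerant muscle. Granuloma UIS held 4 and 6 Anln reads and fibrosarcoma UIS 1 and 3, so the change on the scale of log2(value + 1) understates the ratio. The change was 7.61 ± 0.59 in granuloma and 9.74 ± 0.58 in fibrosarcoma (limma adjusted p = 0.00541 and 0.00213). Mouse Anln measured 91.3, 38.2 and 57.4 in control muscle, 319, 46.4 and 149.7 on the UIS and 2350, 2909 and 2058 in tumors, a higher level in muscle and a change of 4.2 ± 0.67 (limma adjusted p = 0.00472). Kif20a, a kinesin that carries passenger proteins to the central spindle, measured 493 and 399 on the UIS against 1009 and 1053 in granulomas, and 433 and 367 on the UIS against 1488 and 1777 in fibrosarcomas. It measured 414, 281, 372 and 472 in control and 285, 309.9, 435 and 309.6 in tolerant muscle, and in mouse 29.3, 20.1 and 24.8 in control muscle, 39.9, 20.6 and 20.1 on the UIS and 530.3, 710.0 and 742 in tumors. Spalax muscle held Kif20a at 281 to 493 throughout, and the granuloma change of 1.21 ± 0.34 was not called (limma adjusted p = 0.0557) although both granulomas exceeded all 12 muscle libraries. The changes in Spalax fibrosarcoma (2.03 ± 0.25, limma adjusted p = 0.00795) and mouse (4.62 ± 0.40, 0.00131) were called. Kif23 and Prc1, the motor and the bundler of the central spindle, were called in all 3 comparisons, Kif23 by 5.85 ± 0.58, 7.95 ± 0.39 and 4.68 ± 0.75 and Prc1 by 4.63 ± 0.59, 4.87 ± 0.38 and 5.09 ± 0.70.

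The last pair are transcription factors of G2 and M phase. Foxm1 measured 20.5 and 137 on the UIS against 558 and 366 in granulomas, and 12.1 and 19.9 on the UIS against 991 and 619 in fibrosarcomas. It measured 11.04, 14.4, 31.2 and 26.9 in control and 53.3, 17.5, 22.5 and 16.1 in tolerant muscle, and in mouse 9.78, 11.1 and 10.6 in control muscle, 154, 8.25 and 7.2 on the UIS and 979, 1462 and 1351 in tumors. UIS 976 was again the high UIS library, and the granuloma change of 3.06 ± 0.97 was not called (limma adjusted p = 0.0733). In Spalax fibrosarcoma and mouse Foxm1 rose by 5.57 ± 0.49 and 5.78 ± 1.12 (limma adjusted p = 0.00449 and 0.00876). Mybl2 measured 2.41 and 28.3 on the UIS against 785 and 466 in granulomas, and 13.3 and 12.8 on the UIS against 1531 and 1215 in fibrosarcomas and was called in all 3 comparisons (5.92 ± 1.13, 6.6 ± 0.37 and 4.14 ± 0.77, limma adjusted p = 0.0224, 0.00181 and 0.00746).

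The malignant and the benign tumors of Spalax were then set against each other. Fibrosarcomas held more RNA of nearly every member, with a log2 difference above 0 in 41 of 42 and a median of 1.05 for replication and 0.87 for mitosis members, beside 0.03 over all genes. Both fibrosarcomas exceeded both granulomas in 35 members (11 and 24), where 16.7% of all genes did so. With 2 libraries against 2, limma called 0 members and 0.0% of all 14562 genes, edgeR called 0 members, and DESeq2 called Cdc6 (1.63, adjusted p = 0.037) and Mki67 (1.61, adjusted p = 0.00871). At an unadjusted limma p under 0.05 there were 22 members higher (8 and 14), against 1.68% of all genes. This number fell without any 1 of the 4 libraries, and most without granuloma IS 976. Each of these settings left 1 library in a group, and the share of all genes in them is not given here. Cdc6 differed most, at 1.66 ± 0.34, followed by Mki67 at 1.64 ± 0.27, for which the values above show 3823 and 3859 against 1286 and 1180. Ccne1 was the exception, at -0.14 ± 0.93, with fibrosarcoma 2230 above and 2240 below both granulomas. Fibroblast markers moved the other way, summing to 846300 and 1837000 in the granulomas and 113700 and 416800 in the fibrosarcomas, and their part in the difference was not tested.

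**Figure D4:**
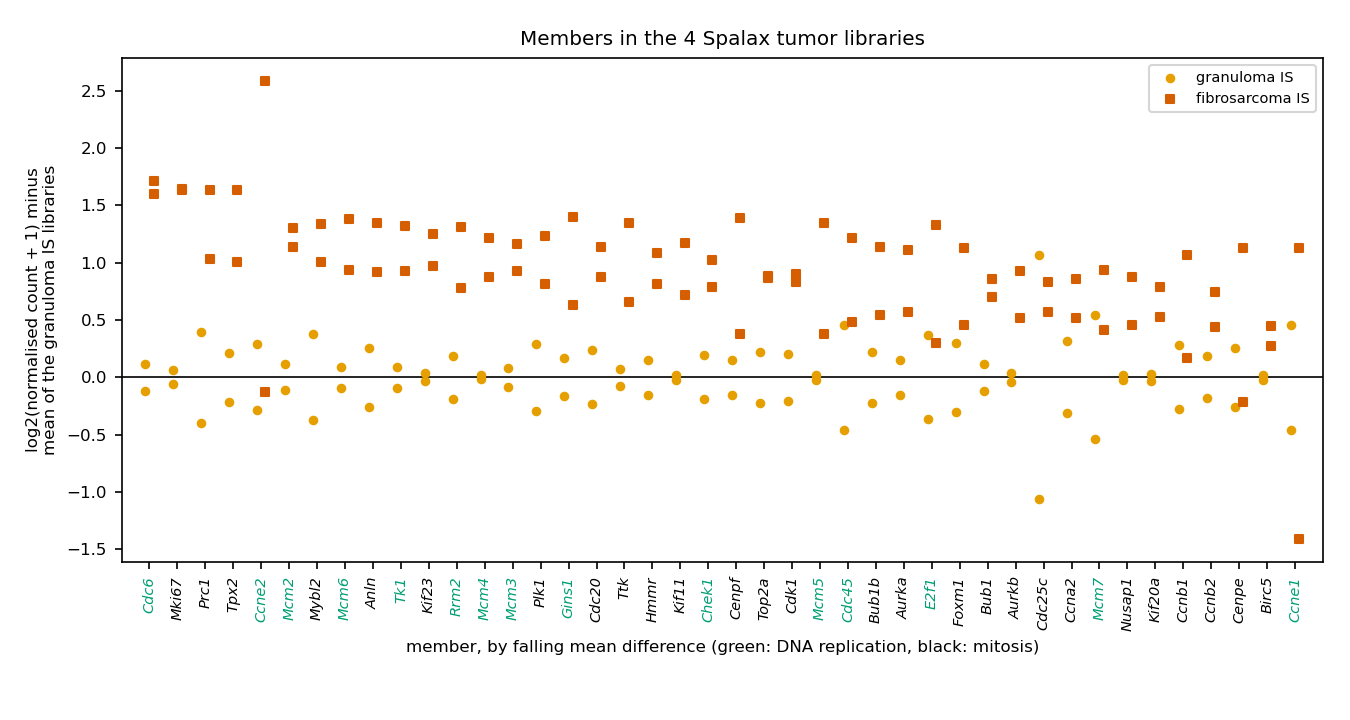
For each member, log2 of the normalised count plus 1 in the 4 Spalax tumor libraries, minus the mean of both granulomas, with granulomas as orange circles and fibrosarcomas as red squares and genes ordered by falling mean difference. In 35 of 42 members both squares lie above both circles. Ccne1, Ccne2, Cenpe and Ccnb1 are among the genes where they do not.

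Whether the difference between IS and UIS itself was larger in fibrosarcoma than in granuloma was tested by an interaction term. Limma called 0 members and 0.0% of all genes, edgeR 0 members, and DESeq2 Mcm5 (3.6, adjusted p = 0.0192) and Mki67 (3.33, adjusted p = 0.00797). At an unadjusted limma p under 0.05 there were 10 members with a larger difference in fibrosarcoma (4 and 6), beside 1.76% of all genes, and none with a smaller one. The largest were Mcm5 (3.39 ± 0.80), Cenpf (3.35 ± 1.92) and Mki67 (3.15 ± 0.68), of which Cenpf was not among the 10. The number of members at an unadjusted p under 0.05 rose without granuloma UIS 600 and fell without any other single library. Each of these settings left 1 library in a group, and the share of all genes in them is not given here.

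The same fibrosarcoma response was compared between species over 11085 genes with a shared symbol. Of the 42 members, 4 differed by limma, against 2.01% of genes with a larger change in Spalax and 1.94% with a smaller one. Gins1 (3.86 ± 0.61, limma adjusted p = 0.019), Tk1 (3.37 ± 0.60, 0.026) and Anln (5.55 ± 1.02, 0.0287) rose more in Spalax, and Kif20a (-2.6 ± 0.52, 0.0341) rose more in mouse. Mean UIS values were 20.4 in Spalax and 93.2 in mouse for Gins1, 13.4 and 175 for Tk1, and 2.74 and 172 for Anln. For Kif20a they were 400 and 26.9. Mean tumor values were 581 in Spalax and 164 in mouse for Gins1, 702 and 837 for Tk1, and 2960 and 2440 for Anln. For Kif20a they were 1630 and 661. These levels come from separately normalised tables, and the part of either side in the species difference was not tested. With the animal as a replicate block 0 of the 4 were called (limma adjusted p = 0.0703, 0.079, 0.0777 and 0.109), and edgeR called 4 members and DESeq2 13. The calls also fell to 0 without Spalax UIS 2240, Spalax UIS 2230 or mouse IS 1023, to 1 without mouse UIS 1023 and to 2 without Spalax IS 2240, Spalax IS 2230 or mouse IS 512. They rose to 7 without mouse UIS 512 and to 10 without mouse UIS 1019. The share of all genes called in these settings is not given here, so whether the rise is particular to the members cannot be told. Without mouse UIS 1019 Cdk1 differed by -5.41, Birc5 by -3.91 and Hmmr by -3.37, each with a smaller change in Spalax. The tables rest on different gene models and were normalised separately, which a difference of differences removes only for factors that act alike on IS and UIS.

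Tumor tissue was also set against the injected side that grew no tumor. In 38 of 42 members the 4 Spalax tumors were called higher than the 4 tolerant libraries (12 and 26) and in 0 lower, where 22.4% of 14578 genes were called higher. Of the 42, 18 (2 of replication, 16 of mitosis) did not reach a value of 10 in every tolerant library and entered this comparison only with the help of tumor libraries. The exceptions were Mcm7 (0.52 ± 0.38), Cdc45 (1.01 ± 0.41), Ccne2 (1.74 ± 0.68) and Cdk1 (1.15 ± 0.57), with limma adjusted p of 0.278, 0.0701, 0.061 and 0.126. Anln (8.15 ± 0.79) and Kif11 (7.83 ± 1.0) differed most, with adjusted p of 9.43e-05 and 0.000453. Medians were 3.38 for replication and 5.82 for mitosis members, and leaving out 1 library at a time gave 38 to 40 calls. Scaling by total reads called all 42, a scaling that raised the medians over all genes between IS and UIS. The share of all genes called in these settings is not given here. The tumors carried single and the tolerant libraries dual indexes, so index and tissue cannot be told apart here.

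Limma called 0 members between groups of muscle libraries, and 0.0% of all genes were called in any of the 3 comparisons. Between tolerant and control Spalax 33 members were testable, and 1 had an unadjusted limma p under 0.05, namely Mcm4, at 0.92 ± 0.36 with all tolerant values (32.2 to 47.1) above all control values (17.5 to 30.8). In that comparison 3.07% of all genes were higher at this level, 2.5% were higher without overlap, and edgeR and DESeq2 called 0 members. Between UIS and control Spalax 3 of 33 members were lower at an unadjusted p under 0.05, beside 8.74% of all genes. They were Mcm2 (-0.93 ± 0.27), Mcm5 (-1.78 ± 0.72) and Kif23 (-1.31 ± 0.48), edgeR called 0 members, and DESeq2 called Mcm2 (-0.93, adjusted p = 0.042). Index type and group cannot be told apart here. Between UIS and control mouse, 0 of 33 members had an unadjusted limma p under 0.05, and edgeR and DESeq2 called 0. Of these 33, 31 lay above 0, with medians of 0.22 and 0.86 for replication and mitosis members, but 13 without UIS 1019, with medians of -0.07 and -0.14.

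Mouse UIS 1019 had the highest value of the 6 mouse muscle libraries in 37 of 42 members (11 and 26), where 17.1% of all genes were highest in it. Its members measured a median of 16.1% of the value in the tumor of the same mouse, against 2.94% for the median of the other muscle libraries, with 19.8% for replication and 14.2% for mitosis genes. Top2a there was 497, against 2.88 to 36.2 in the other 5, and Foxm1 154, against 7.20 to 11.1. In the same library fibroblast markers measured a median of 17.4% of the tumor, macrophage markers 15.5% and lymphocyte markers 19.8%, against 6.02%, 10.9% and 7.3% in the other muscle libraries. Of these markers 1 of 6, 3 of 6 and 2 of 6 were above all peers. The 22 genes of the anaphase-promoting complex and cohesin, which also serve cells that do not divide, measured 74.9%, close to the 76.2% of the other muscle libraries. The muscle fiber sum of UIS 1019 was 2495000, against 173 in its tumor, and what the library shares with the tumor was not tested.

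In Spalax the tolerant library 2251 had the highest value of the 12 muscle libraries in 23 members (4 and 19), where 23.9% of all genes were highest in it, with a median of 7.21% of the mean tumor value against 3.15% in the others. Its mitosis sum was 0.808 of its replication sum, where the other 11 libraries gave 0.356 to 0.796. With Mcm7, Cdk1 and Kif20a left out, a choice made with the values known, the ratio was 0.987, against 0.367 to 0.653. At the same time 6 of 6 fibroblast markers (sum 172000, against 7591 to 40120) and 5 of 5 macrophage markers (sum 9641, against 452 to 1970) were above all other muscle libraries, as were 3 of 6 lymphocyte markers, and its muscle fiber sum of 893900 was the lowest. Granuloma UIS 976 had the highest value in 11 members (7 and 4), among them Mcm7 at 6301, Chek1 at 155.5, Cenpf at 309 and Foxm1 at 137. Of all genes 23.1% were highest in this library, a share near that of the members. Another 4 members (Ccne1, Plk1, Nusap1 and Prc1) were lowest in it, as were 9 of 46 further mitosis genes. The share of all genes lowest in UIS 976 was not counted. In the same library 13 of 21 genes of the anaphase-promoting complex and cohesin were above all other muscle libraries. Its fibroblast and macrophage sums were 13680 and 557. The part of these cell types in the values of 2251 and UIS 976 was not tested.

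**Figure D5:**
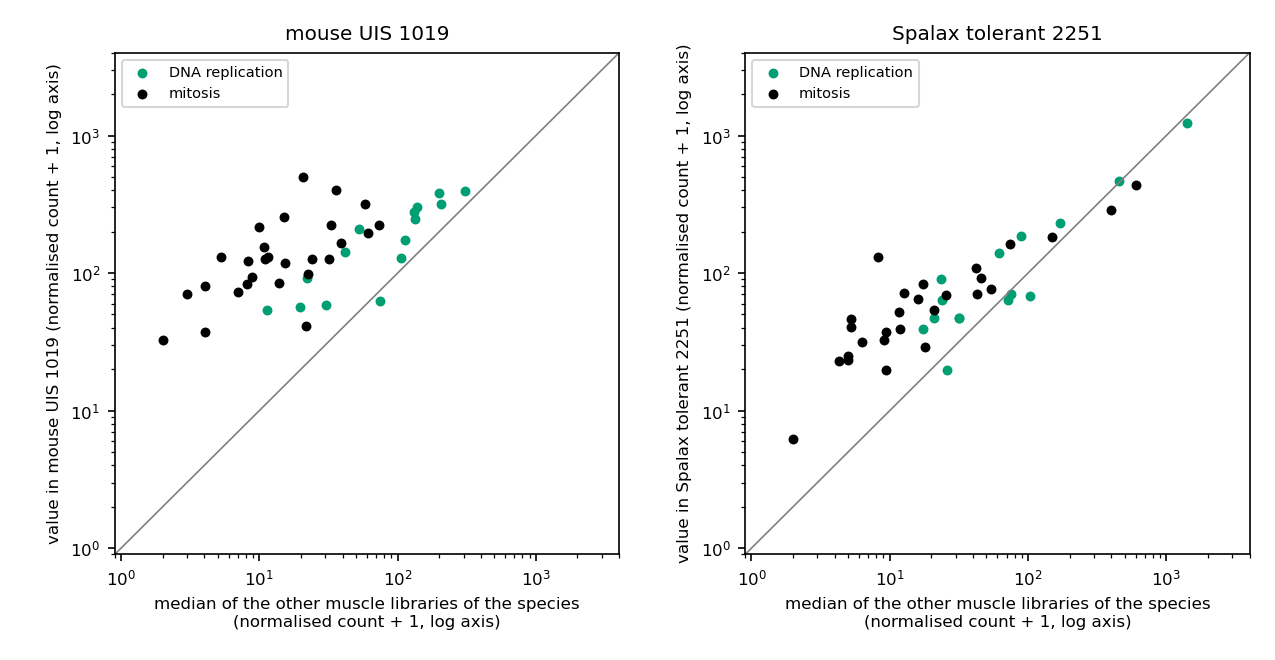
Value of each member in mouse UIS 1019 (left) and Spalax tolerant 2251 (right) against the median of the other muscle libraries of the species, as normalised count plus 1 on log axes, with DNA replication genes in green, mitosis genes in black and a line of equality. In the left panel every point but Gins1 lies above the line, and in the right panel Mcm7, Cdc6, Cdc45, Ccne1, Ccne2, Cdk1 and Kif20a lie below it.

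Levels of different members can be compared only per length, which was done for mouse with the exon bases of the GENCODE vM21 annotation (GRCm38). Per kilobase of exon, the mean over 3 tumors was highest for Top2a (594 ± 56.8, SD, chromosome 11, 98992943 to 99024189), Ccnb2 (546 ± 101), Mcm6 (536, 480.0 to 599) and Cdc20 (504, 443 to 574), which overlapped in range. It was lowest for Cdc25c (51.2 ± 10.6), Cdc6 (69.1 ± 6.81) and Cenpf (70.5 ± 22.4). The gene models used for the counting were not given beyond GRCm38. Reads and exon bases may thus rest on different transcripts, and this order depends on the annotation. Mki67 (chromosome 7, 135689784 to 135716361) stood at 434 ± 50.9. Some members share exon bases with a gene on the other strand, and the strand setting of the counting was not given in the sources used here. This concerns 29.3% of the exon bases of Kif20a (with Cdc23), 17.4% of Ccne2 (with Ints8), 12.7% of Cdc25c, 12.5% of Ccna2 (with Exosc9), 11.1% of Prc1 and 8.7% of Mcm7 (with Cops6 and Ap4m1), so reads of these pairs may be mixed in mouse.

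Other genes of the same pathways were counted in the same way, beside 11.7%, 17.4% and 22.8% of all genes called higher in granuloma, Spalax fibrosarcoma and mouse. Of 36 further replication genes 17 were called higher in granuloma, 24 in Spalax fibrosarcoma and 29 in mouse, and 0 lower, with medians of 1.48, 2.18 and 2.68. Clspn, a fork checkpoint adaptor, rose by 6.05, 8.87 and 5.94, whereas the single-strand binding protein Rpa1 differed by -0.61, 0.23 and -0.79 and was not called. Of further mitosis genes 38 of 46 were called higher in granuloma, 42 of 46 in Spalax fibrosarcoma and 46 of 48 in mouse, where 1 was called lower (Pttg1), with medians of 4.16, 4.64 and 4.67. Melk, Ect2 and Dlgap5 led in granuloma (7.35, 7.16 and 7.04). Bub3, a checkpoint protein, was not called in any (0.07, 0.30 and 0.23). Genes of the anaphase-promoting complex and of cohesin also serve cells that do not divide. Of these, 1 of 21 was called higher in granuloma, 4 of 21 in Spalax fibrosarcoma (and 1 lower, Cdc26) and 6 of 22 in mouse (and 2 lower, Anapc5 and Anapc13), with medians of 0.14, 0.53 and 0.43, shares close to or below those of all genes.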

How the data were processed

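RNA-seq libraries of 25 samples were single-end and stranded. Per the labels and the study's methods, the authors aligned reads and counted them per gene. The sources differ on the tools. The submitters' processing notes name TopHat 1.4.1, HTSeq, DESeq and GRCm38, and the study's methods name TopHat2, htseq-count, edgeR and DESeq2. Each deposited value is a read count divided by 1 size factor per library, a normalised signal, in 1 table per species. Whole reads could be recovered for 100% of values (tolerance 0.01 reads). In 2387 Spalax names a comma stands for a lower-case t. Replicates are separate animals, and no pair of libraries agreed within counting noise.

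Log2(value + 1) was compared with limma 3.58.1 (R 4.3.3, moderated variance with trend) in the compared groups only, over genes that reached a value of 10 in a number of libraries equal to the smaller group, with Benjamini-Hochberg adjustment over all genes tested. The species interaction used shared symbols. Recovered read counts of the deposited tables went to edgeR 4.0.16 (quasi-likelihood) and DESeq2 1.42.0 as alternatives, beside other scalings, no filter, a pseudocount of 0.1, leaving out each library, and the animal as a replicate block. IS and UIS of an animal are paired by the labels. The correlation of their deviations was 0.01 and 0.01 in granuloma, 0 and 0 in Spalax fibrosarcoma, and 0.13, 0.05 and 0.18 in mouse. The scripts were tested on simulated data. Values in every library were given for Mki67, Top2a, Anln and Hmmr, for the member with the highest mean in each role and for members that differed in call from most of their list, along with some others chosen after their values were seen. Members and gene lists were chosen with earlier results of these data known.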

Additional observations from a re-analysis of the deposited data

Results flagged for a closer look

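In the groups of 4 Spalax libraries, 13 of 84 combinations of member and group held 1 library far from the other 3 by Dixon's criterion. Values were not put on a log scale here, unlike in the fits, and whether the flags hold on a log scale was not tested. The criterion marks about 1 in 20 for normally distributed values and independent tests, and members read in the same libraries are not independent. The share of flags over all genes was not counted, and 23.9% of all genes were highest in tolerant 2251 among Spalax muscle libraries. Tolerant 2251 accounted for 7 of the 13 flags, 1 replication and 6 mitosis genes, each on the high side. They were E2f1 (90.1), Mki67 (131), Anln (39.8), Aurkb (22.5), Bub1 (51.0), Bub1b (70.6) and Kif11 (45.0). Tolerant 2375 was high in Mcm6 (940.0) and Mcm7 (2910) and low in Mcm4 (32.2). Tolerant 2218 was high in Kif20a (435). In the control group, 1042 was high in Aurkb (15.5) and 1075 was high in Kif11 (10.8).

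The change between IS and UIS differed between Spalax and mouse fibrosarcoma, by an interaction term in limma, in Gins1 (3.86), Tk1 (3.37), Anln (5.55) and Kif20a (-2.60). With the animal as a replicate block none of these 4 passed the threshold.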

How the results depend on the processing

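Every member but Cdk1 kept its direction in the 3 IS against UIS comparisons under all alternatives. Cdk1 in granuloma ran from -0.592 (limma adjusted p = 0.268) without granuloma UIS 600 to 1.19 without granuloma UIS 976. Scaling by total reads moved the median of replication and mitosis members to 3.77 and 6.16 in granuloma and 5.13 and 7.10 in Spalax fibrosarcoma, and that of replication members to 4.20 in mouse. A pseudocount of 0.1 gave 6.5 for mitosis members in Spalax fibrosarcoma. Leaving out 1 library gave replication medians of 2.22 to 3.23 in granuloma and mitosis medians of 6.24 to 6.55 in Spalax fibrosarcoma. It gave 0 to 0 member calls in granuloma, 0 to 41 in Spalax fibrosarcoma, 40 to 41 in mouse and 0 to 10 for the species difference, and where a group kept 1 library, that library was taken to vary like the other group. DESeq2 called 2 members between fibrosarcoma and granuloma, 1 between Spalax UIS and control, 2 for the difference of the 2 tumor responses and 13 between species. Over all genes limma, edgeR and DESeq2 called 3581, 2978 and 5383 in granuloma and 438, 391 and 1711 between species, and DESeq2 called 153, 60, 516, 342 and 88 where limma and edgeR called 0 (fibrosarcoma against granuloma, tolerant, Spalax UIS and mouse UIS against control, and the difference of the tumor responses). With the animal as a replicate block 0 members and 38 genes differed between species, Cdc6 and Cenpf gained and Cdc45 lost a call as given above, and no other member call changed. In mouse DESeq2 called 38 members and gave no adjusted p for Mki67, Ccna2 and Foxm1. Groups of 2 animals and UIS values of a few reads limit the precision of the largest changes.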

Other observations

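Among further mitosis genes, Pttg1 and Kif2c differed in pattern from the members. Pttg1 (securin), which holds back the separation of sister chromosomes, measured 1344, 2374 and 1314 in control mice, 1918, 2488 and 1453 on the UIS and 353, 333 and 300.5 in mouse tumors, and every mouse tumor lay below every muscle library (-2.53 ± 0.26, limma adjusted p = 0.00178). In Spalax Pttg1 measured 15.3 to 65.4 in the 12 muscle libraries, 429 and 301 in the granulomas and 635 and 478 in the fibrosarcomas, and rose by 3.39 ± 0.61 and 3.23 ± 0.37 (limma adjusted p = 0.0202 and 0.00706). The difference between both fibrosarcoma responses was 5.77 ± 0.43 (limma adjusted p = 0.00175). Kif2c, a kinesin that takes microtubules apart at kinetochores, measured 60.1 to 1024 in Spalax muscle and 109 to 209 in Spalax tumors, with overlapping groups and changes of -0.57 ± 1.01 and -0.55 ± 0.41 (limma adjusted p = 0.704 and 0.342). In mouse Kif2c measured 0 to 6.19 in 5 muscle libraries, 67.7 in UIS 1019 and 490.5, 575 and 677 in tumors (6.19 ± 1.42, limma adjusted p = 0.0146). Both genes were singled out after their values were seen.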
